A study of Rattus norvegicus with 10 samples.

Results

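The MRuc RNAs were the long noncoding RNAs (lncRNAs) of a rat expression array whose identifiers begin with MRuc, the class of rat sequences orthologous to mouse UCSC genes. Every non-control probe with such an identifier was taken, which gave 685 probes for 685 RNAs out of 24684 non-control probes for 24674 RNAs. Each MRuc RNA had 1 probe, spotted 3 times, and so 2055 of the 42136 non-control spots of an array. By identifier, 235 belonged to the MRuc007 series, 259 to MRuc008 and 191 to MRuc009. These identifiers carry no gene name, position or function in the files, so the RNAs are called by their identifiers.

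The array profiled the spinal cord of 10 adult male Sprague Dawley rats of 240 to 260 g. The 5 rats of the morphine tolerance (MT) group received 10 μg morphine in 10 μl intrathecally at 2 injections daily over 7 days, and the 5 rats of the normal saline (NS) group received 10 μl saline on the same schedule. Rats 1 to 5 were MT and rats 6 to 10 were NS. On day 8 the rats received a further morning injection of morphine or saline and were anesthetized 1 hour later, and the lumbar enlargement was taken. Effects of that last dose and of the repeated doses cannot be told apart here. For each rat 1 array was hybridized, and the comparison asked which RNAs differ after repeated morphine.

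Long noncoding RNAs are transcripts without an evident long reading frame, and many are made at low levels and in particular cell types. In the nervous system some of them act on transcription in the nucleus and others bind proteins or small RNAs in the cytoplasm. Conservation of a transcript between mouse and rat says that its sequence can be aligned, and leaves its function unstated. The tissue was a mixture of cells, so fewer cells of a type and less RNA per cell cannot be told apart.

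No header names a slide. Arrays that shared a scan time, and held different array places in the headers, were taken as 1 slide, which gave 3 slides. Slide 1 held MT rats 1, 3, 4 and 5, slide 2 held MT rat 2 and NS rats 6, 7 and 10, and slide 3 held NS rats 8 and 9 and was scanned on another day. Slide 3 was dimmer. The lowest signal that counted as well above background was 4.25 and 4.28 in normalized log2 intensity on its arrays and between 2.48 and 2.77 on the others. Markers of neurons, oligodendrocytes, astrocytes and microglia were found on all arrays, and 1 of the 2 probed genes of a liver list meant to be absent was found on all arrays too. Of the neutrophil list, 2 of 4 genes were on the array, and their mean log2 intensity was 6.41 to 7.06 in MT and 5.15 to 6.03 in NS rats, without overlap. The part of these cells in any MRuc difference was not tested.

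Detection of the MRuc RNAs was incomplete and was lowest on slide 3, whose rats were both NS. An RNA was called well above background on an array when more than 50% of its spots carried that flag. Of the 685 MRuc RNAs, 315 (46.0%) were well above background on all 10 arrays and 126 (18.4%) on none. The share detected was 74.6%, 77.8%, 77.1%, 73.6% and 75.3% in MT rats 1 to 5. It was 70.8%, 69.8% and 73.9% in NS rats 6, 7 and 10. It was 52.3% and 46.0% in NS rats 8 and 9. NS rat 10 lay just above the lowest MT rat, NS rats 6 and 7 a little below the MT rats, and the rats of slide 3 far below all others. Of the 450 MRuc RNAs well above background on all 8 arrays of slides 1 and 2, 96 were so on neither array of slide 3 and 315 on both.

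**Figure D1:**
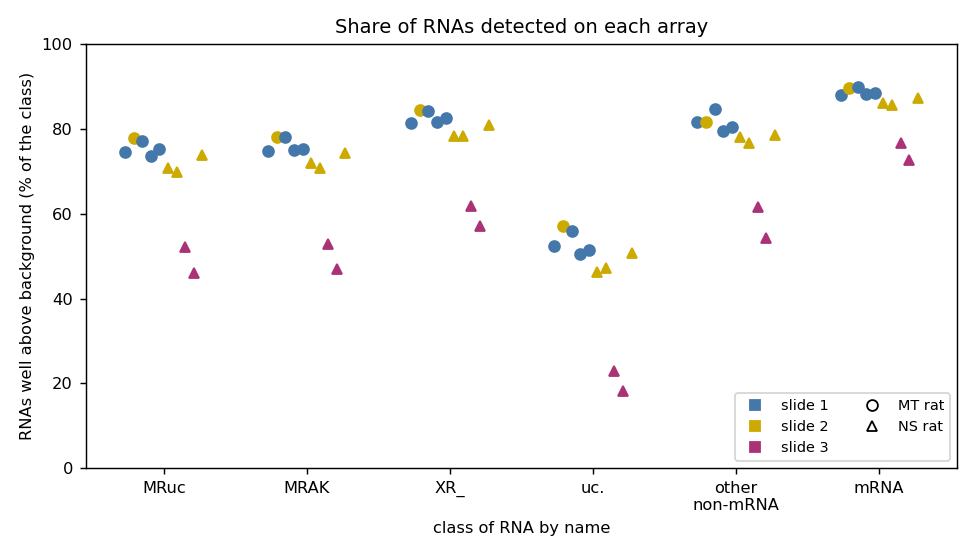
Percent of the RNAs of each class that were well above background (y axis) on each of the 10 arrays, by class of identifier (x axis), with colour for slide, circles for MT and triangles for NS rats. In each class the 2 arrays of slide 3 lie lowest, at 52.3% and 46.0% for MRuc against 69.8% to 77.8% on the other arrays.

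The other lncRNA classes give a scale for this detection. With the filter used for testing, well above background on at least 5 arrays, 500 of 685 MRuc RNAs (73.0%) were kept. The share was 73.7% for MRAK RNAs, 80.6% for XR_ model transcripts and 48.6% for uc. RNAs from ultraconserved regions. It was 87.3% for mRNAs and 82.2% over all RNAs. The median NS level of the tested MRuc RNAs was 6.13 in normalized log2 intensity, with an interquartile range of 4.39 to 8.62, beside 6.14 for MRAK, 7.35 for XR_, 4.60 for uc. and 9.01 for mRNAs. These levels also depend on how well each probe binds, so they describe signals of probe classes and not amounts of RNA. Over the MRuc series, 71.1% of MRuc007, 74.9% of MRuc008 and 72.8% of MRuc009 RNAs were kept.

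The 185 RNAs that were not tested comprised the 126 seen on no array and 59 seen on 1 to 4 arrays. Of the 185, 45 were seen on more MT than NS arrays and 5 on more NS than MT arrays, in a design in which both arrays of the dim slide were NS. The same counts over all RNAs were not made, and detection was lowest on slide 3 in every class. MRuc007nwi, 1 of the 4 MRuc RNAs among the changed lncRNAs that the study tabulated, was among the RNAs seen on no array. Its normalized log2 intensity was 2.55 to 2.89 over the MT rats and 2.79 to 4.66 over the NS rats, with the upper values, 4.66 and 4.17, in NS rats 8 and 9 of slide 3. No fold is given for it.

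The tested MRuc RNAs spanned the range of the array, from 2.57 to 15.57 in mean NS log2 intensity. MRuc007hrz gave the strongest signal, 15.39 to 15.52 over the MT rats and 15.38 to 15.75 over the NS rats. MRuc007gex lay at 15.02 to 15.07 in MT and 15.00 to 15.19 in NS rats, and the groups overlapped for both. MRuc007yar was lower in MT, at 13.63 to 13.87 against 13.88 to 14.27 in NS, with a log2 difference of -0.28 ± 0.10 (SE, n = 5 per group) and an adjusted p of 0.203 in limma. It was -0.15 without slide 3 and -0.067 with slide as a fixed block. At the other end MRuc009ptv was measured at 2.58 to 3.58 in MT and 1.69 to 3.41 in NS rats and was well above background on 5 arrays.

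Precision grew with the signal. The SD between the 3 spots of a probe had a median of 0.143 log2 and ran from 0.0228 to 1.23, while the SD between rats of a group had a median of 0.226. Below a NS level of 4, the 96 RNAs there had a median spot SD of 0.530 and a median rat SD of 0.406. From 6 to 8 these were 0.0924 and 0.206 over 106 RNAs, and at 10 and above 0.0616 and 0.129 over 80. Dim MRuc RNAs were measured with several times the error of bright ones. Of the 22 tested MRuc RNAs that differed by more than 1.5-fold, 10 were below a level of 4.

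The NS rats varied more than the MT rats. The median SD was 0.250 log2 over the NS and 0.153 over the MT rats, and 368 of 500 MRuc RNAs had the larger SD in NS. Over all RNAs the median SD was 0.210 in NS and 0.165 in MT. Without the arrays of slide 3 the median SD of the remaining 3 NS rats was 0.141. For 497 MRuc RNAs with a value on every array, both arrays of slide 3 lay below all 8 other arrays in 126 and above them in 99, together 45.3%, beside 40.6% over all RNAs. The mean of slide 3 differed from that of the other NS rats by more than 1 log2 unit in 56 MRuc RNAs. The median size of this difference was 0.327 over the MRuc RNAs and 0.268 over all RNAs.

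MRuc007nww shows this pattern at a bright probe. Its log2 intensity was 11.18, 10.98, 10.92, 11.19 and 11.08 in MT rats 1 to 5. It was 10.96, 10.79, 8.08, 7.92 and 11.08 in NS rats 6 to 10. The 2 low values were those of slide 3. The log2 difference of MT minus NS was 1.30 ± 0.65 (SE, n = 5 per group), the largest among the MRuc RNAs, with an adjusted p of 0.350, and it was 0.13 without slide 3. MRuc008fdh read 5.34 to 5.84 in the MT rats, 6.00, 5.35 and 6.23 in NS rats 6, 7 and 10, and 2.33 and 3.22 in NS rats 8 and 9. Its difference of 0.89 ± 0.71 turned to -0.34 without slide 3. MRuc008pug, with no value for MT rat 3 and NS rat 10, changed from 1.25 ± 0.89 to -0.27.

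Against this spread, MT and NS differed little in the MRuc RNAs as a group. The median log2 difference of MT minus NS was 0.026 over the 500 tested MRuc RNAs and -0.0013 over all 20286 RNAs tested. The differences ran from -0.90 to 1.30, and 271 of 500 (54.2%) were above 0. A difference above 1.5-fold was found for 20 RNAs higher in MT, where 4.24% of all RNAs passed, and for 2 lower in MT, where 1.45% passed. No MRuc RNA had an adjusted p below 0.05 in limma with Benjamini-Hochberg adjustment over all RNAs, where 0.197% of all RNAs passed, 0.0739% higher and 0.123% lower in MT. The smallest adjusted p was 0.0687. At an unadjusted P below 0.05, 68 MRuc RNAs (13.6%) passed, beside 16.4% of all RNAs. The unmoderated test of the study's methods on the same values also left 0 after adjustment.

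By the study's criteria, read as more than 1.5-fold on the linear scale and an unadjusted P below 0.05, 7 MRuc RNAs were up-regulated and 1 was down-regulated in the MT group. The shares over all RNAs were 1.74% and 0.996%. The 8 made up 1.6% of the MRuc RNAs tested, beside 2.74% over all RNAs. When arrays were scaled to the 75th percentile instead of quantile normalized, the counts were 19 higher and 0 lower, where 3.49% and 0.552% of all RNAs passed. With no filter on dim RNAs, the 685 MRuc RNAs gave 7 higher and 16 lower, where 1.7% and 2% passed. The 5 MT and 5 NS values did not overlap for 8 MRuc RNAs higher and 12 lower in MT, 4% in all, where 2.35% and 3.29% of all RNAs separated, or 5.64% together. These shares of MRuc RNAs were near or below those of the whole array. The 8 RNAs past the criteria came from all 3 series, 2 from MRuc007, 3 from MRuc008 and 3 from MRuc009.

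**Figure D2:**
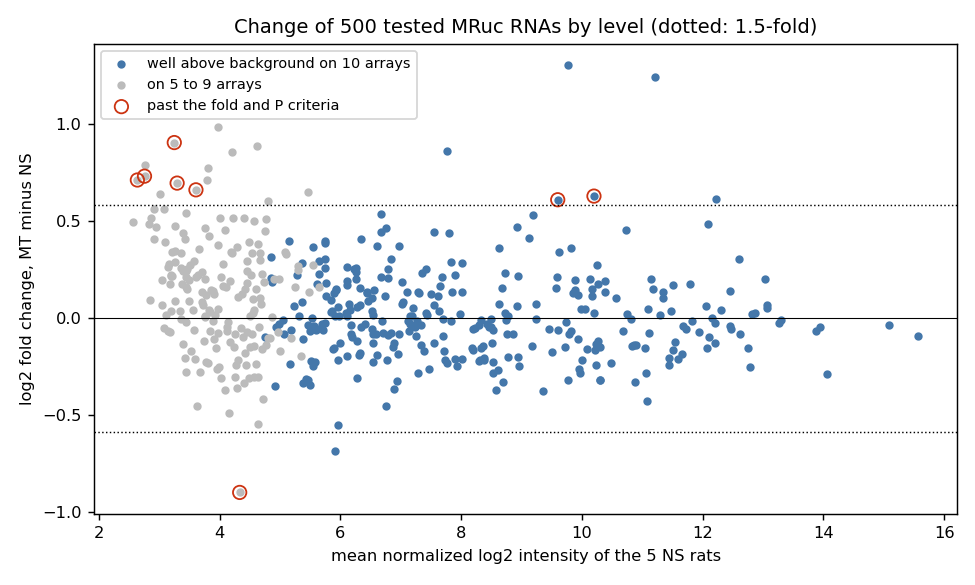
Log2 difference of MT minus NS (y axis) against the mean normalized log2 intensity of the 5 NS rats (x axis) for the 500 tested MRuc RNAs, in blue where well above background on all 10 arrays and grey otherwise, with the 8 RNAs past the study's criteria circled. Of the circled RNAs, 5 lie below a NS level of 4 and 2 are blue.

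Most of these 8 RNAs were dim. The mean NS level of 5 of them lay below 4.25, the lower of the thresholds of detection on slide 3, as did that of 115 of the 500 tested RNAs (23%). Only MRuc009glr and MRuc009mlp of the 8 were well above background on all arrays. None of the 8 was past the criteria when slide entered the model as a fixed block. In that model only slide 2 holds both groups, so the difference rests on MT rat 2 against NS rats 6, 7 and 10.

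MRuc007jeg, also tabulated by the study, rose by the criteria. Its log2 intensity was 4.23, 3.89, 4.09, 4.34 and 4.25 in MT rats 1 to 5. It was 3.38, 3.81, 3.05, 2.36 and 3.66 in NS rats 6 to 10. All MT rats were above all NS rats, and the lowest NS values were those of slide 3. The log2 difference was 0.91 ± 0.25 (SE, n = 5 per group), with an unadjusted P of 0.00428 and an adjusted p of 0.146 in limma. It was 0.54 without slide 3 and 0.27 within slide 2. It was well above background in 5 MT rats and 1 NS rat. The MT arrays were by themselves enough to pass the filter. The mean NS level of 3.25 lay below the detection thresholds of slide 3. Its size and P are therefore not read as evidence of a difference.

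MRuc008uuz was also separated between the groups. It read 3.47, 2.85, 3.50, 3.57 and 3.38 in MT rats 1 to 5. It read 2.76, 2.67, 2.84, 2.43 and 2.50 in NS rats 6 to 10. MT rat 2, the MT rat of slide 2, lay just above NS rat 8 and apart from the other MT rats. The RNA was well above background in every MT rat and in no NS rat, and passed the filter through the MT arrays alone. Only a bound can therefore be given, and the MT level was at least 1.01-fold higher. For the same reason its P is not read as evidence of a difference.

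MRuc008pyu and MRuc008pze showed the same placing of MT rat 2. MRuc008pyu was 3.79, 2.34, 3.92, 3.49 and 3.91 in MT rats 1 to 5 and 2.59, 3.35, 2.71, 2.81 and 2.33 in NS rats 6 to 10. MRuc008pze was 4.31, 3.12, 4.15, 4.29 and 4.10 in the MT rats and 3.38, 3.09, 3.92, 2.97 and 3.13 in the NS rats. In both the 4 MT rats of slide 1 lay above all NS rats, and MT rat 2 lay among the NS rats. The differences were 0.73 ± 0.31 and 0.70 ± 0.26, with adjusted p values of 0.285 and 0.233. Within slide 2 they were -0.42 and -0.08. MRuc008pyu was well above background in 4 MT rats and 1 NS rat, and MRuc008pze in 5 MT and 2 NS rats. Both passed the filter mostly through MT arrays, so their P values are not read as evidence of a difference.

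MRuc007mxo and MRuc009mlp differed less between the groups when slide 3 was left out. MRuc007mxo was 4.22, 4.49, 4.29, 4.17 and 4.19 in MT rats 1 to 5 and 4.48, 3.97, 2.97, 2.80 and 3.82 in NS rats 6 to 10. MRuc009mlp, a bright RNA, was 10.18, 10.13, 10.31, 10.21 and 10.23 in the MT rats and 9.76, 9.96, 8.91, 9.12 and 10.25 in the NS rats. The groups overlapped in both, and NS rats 8 and 9 were lowest. The differences of 0.66 ± 0.29 and 0.61 ± 0.23 became 0.18 and 0.22 without slide 3. Within slide 2 the values were 0.40 for MRuc007mxo and 0.14 for MRuc009mlp. The adjusted p values on all arrays were 0.300 and 0.252.

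MRuc009dux, also tabulated by the study, was the one that fell by the criteria. It was 3.46, 3.48, 2.80, 3.87 and 3.57 in MT rats 1 to 5. It was 4.26, 4.20, 4.98, 4.61 and 3.61 in NS rats 6 to 10. NS rat 10 lay among the MT rats and the other NS rats above them, with the highest values on slide 3. The log2 difference was -0.90 ± 0.26 (SE, n = 5 per group), with an unadjusted P of 0.00665 and an adjusted p of 0.162. It was -0.59 without slide 3 and -0.54 within slide 2, so that its sign held in both. With 75th percentile scaling it was -0.52, under 1.5-fold, and with normexp background correction -0.21.

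**Figure D3:**
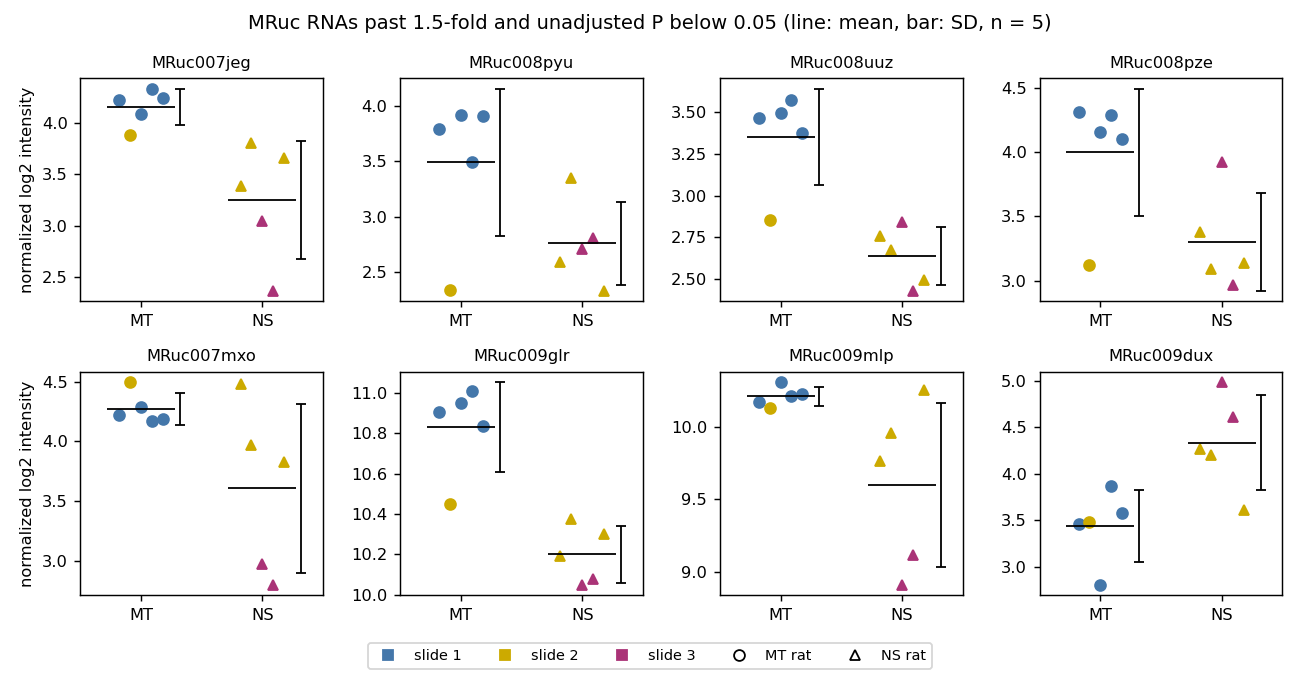
Normalized log2 intensity (y axis, a range of its own in each panel) of the 8 MRuc RNAs past the study's criteria in each MT rat (circles) and NS rat (triangles), coloured by slide, with the group mean as a line and the SD over 5 rats as a bar. MT rat 2, alone among MT rats on slide 2, lies with the NS rats or next to them for MRuc008pyu, MRuc008uuz, MRuc008pze and MRuc009glr.

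MRuc009glr had the smallest adjusted p of the 8, 0.0687, and its spots disagreed. Its log2 intensity was 10.91, 10.45, 10.95, 11.01 and 10.84 in MT rats 1 to 5 and 10.19, 10.38, 10.05, 10.08 and 10.30 in NS rats 6 to 10. The groups were separated, with a difference of 0.63 ± 0.12. Of its 3 spots, 1 read between 8.43 and 8.67 on all 4 arrays of slide 2, whichever the group, while the other spots read 11.06 to 11.35 there. On slide 1 all 3 spots read 10.71 to 11.10. On slide 3 that spot read 9.54 and 9.71 and the others 10.22 to 10.34. Taking the median of the spots in place of their mean gave a difference of 0.22. Spots disagreed in others of the 8 too. The spot SD was 0.986 log2 for MRuc009glr, 1.02 for MRuc008pze, 0.845 for MRuc007mxo and 0.727 for MRuc008pyu. The median spot SD below a NS level of 4 was 0.530. With the median of the spots none of these named RNAs met the criteria.

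MRuc007cgx, also tabulated by the study, had the same kind of spot. Its values were 6.20, 5.92, 6.47, 6.02 and 5.98 in MT rats 1 to 5 and 5.75, 6.62, 4.72, 4.60 and 5.64 in NS rats 6 to 10. The difference was 0.65 ± 0.35 with an unadjusted P of 0.0905, so that it did not meet the criteria, and it was 0.11 without slide 3. It met them with outlier spots kept, at 0.81 with an unadjusted P of 0.0107 in limma, in the deposited log2 values, at 0.81 with 0.0114, and without NS rat 7, at 0.94 with 0.00553. On slide 2, 1 spot read 3.90 to 4.54 and the others 6.31 to 6.66. For NS rat 7 that spot, at 4.23, was left out as an outlier, so the value of 6.62 came from the other spots. For MT rat 2 and NS rats 6 and 10 the spot was kept in the mean. On slides 1 and 3 no spot stood apart to that extent.

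**Figure D4:**
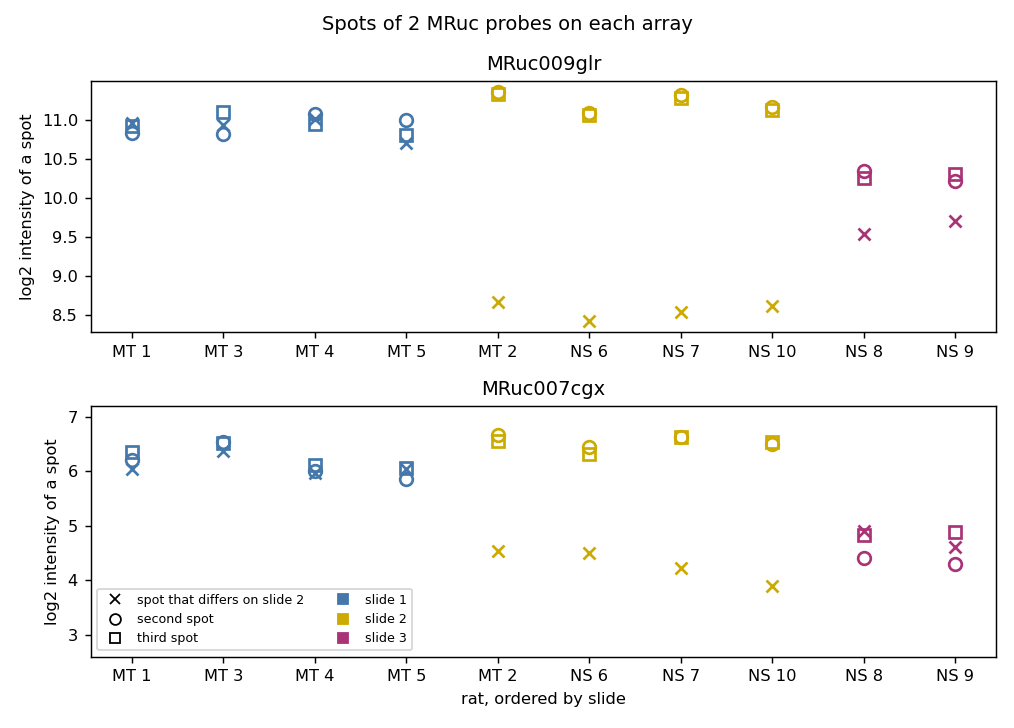
Log2 intensity of each of the 3 spots (y axis) of MRuc009glr and MRuc007cgx on the array of each rat (x axis, ordered by slide), with crosses for the spot that differs on slide 2. On slide 2 the crosses lie at 8.43 to 8.67 for MRuc009glr and 3.90 to 4.54 for MRuc007cgx, in MT rat 2 and the NS rats alike.

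A discordant spot on slide 2 was found in 8 of 328 MRuc probes bright enough to be compared. A spot was counted when it differed from the mean of its probe's other spots by more than 1 log2 unit on every array of the slide, at a level above 5, and was the farthest spot of its probe. This held for 8 of 971 MRuc spots on slide 2 and for 0 on slides 1 and 3. Over the whole array 85 of 13391 spots were discordant on slide 2, 74 of them lower, and 68 lay in the first 100 of 532 rows. On slide 1 there was 1 such spot and on slide 3 there were 16. The other MRuc probes were MRuc007okw, MRuc007vop, MRuc007wxn, MRuc008gac, MRuc008ypu and MRuc009dbq, which were picked out after their values were seen. The MT minus NS differences of these 8 RNAs ran from 0.21 to 0.65 log2, all above 0, as were 54.2% of all tested MRuc RNAs. The discordant spot was the lower one on slide 2 in 7 of them and the higher one in MRuc007okw, whose difference was 0.54. Slide 2 held 1 MT and 3 NS rats, so a low spot there lowers the NS mean more than the MT mean. The signs of these RNAs are therefore not independent of how they were picked, and the share of the spots in their differences was not tested.

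Outside the 8 RNAs past the criteria, the MRuc RNAs with the smallest P had differences under 1.5-fold. MRuc008btb was 5.49, 5.45, 5.62, 5.63 and 5.58 in MT rats 1 to 5 and 5.04, 5.15, 5.27, 5.26 and 5.05 in NS rats 6 to 10. The groups were separated, and the difference was 0.40 ± 0.07 with an adjusted p of 0.0687. It was 0.48 without slide 3 and 0.37 with slide as a fixed block, where the MT group is MT rat 2 alone and the adjusted p was 0.856. With 75th percentile scaling it was 0.66 and met the criteria, and with normexp it was 0.15. MRuc008nkw and MRuc007pas were higher in MT in value by 0.51 ± 0.11 and 0.49 ± 0.13, with adjusted p values of 0.0930 and 0.137, and by 0.25 and 0.35 with the slide block.

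MRuc007uxi was the clearest of those lower in MT. It was 10.59, 10.72, 10.47, 10.70 and 10.79 in MT rats 1 to 5. It was 11.07, 10.98, 11.17, 11.16 and 11.01 in NS rats 6 to 10. All MT rats were below all NS rats, by -0.42 ± 0.08 on the log2 scale with an adjusted p of 0.0687. The difference was -0.37 without slide 3 and -0.30 within slide 2. MRuc008pdu, MRuc009iyv, MRuc008ysa and MRuc009pub were separated too, at -0.37, -0.25, -0.32 and -0.33, with adjusted p values from 0.118 to 0.138. With the slide block these were -0.28, -0.17, -0.19 and -0.052, and MRuc009pub was -0.060 with 75th percentile scaling.

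For 6 MRuc RNAs every MT array and no NS array was well above background, where 0.389% of all RNAs showed this, and the reverse held for none, as for 0 RNAs of the whole array. These RNAs passed the filter through the MT arrays alone. Beside MRuc008uuz they were MRuc007dak, MRuc008lvx, MRuc008nus, MRuc008tfo and MRuc008tzg. MRuc007dak was 3.49 to 4.18 in MT and 3.04 to 3.64 in NS rats, at least 1.102-fold higher in MT. For the other 4 the bound was under 1, so no fold is given. MRuc008tzg read 2.79 to 3.65 in the MT rats, and 4.69 and 4.12 in NS rats 8 and 9 against 2.52 to 2.76 in the other NS rats. For this RNA the values of slide 3, not called detected, were higher than the detected values of the MT rats.

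Leaving out both arrays of slide 3 changed which MRuc RNAs passed. Of the 500, 348 kept the sign of their difference, and the median difference was 0.013. The criteria were then met by 5 RNAs higher and 9 lower in MT, where 1.88% and 1.68% of all RNAs passed, and 3 RNAs were among the 8 of the full set. With slide as a fixed block, 3 were higher and 4 lower, where 0.75% and 0.858% of all RNAs passed, and 0 were among the 8. No MRuc RNA passed the adjusted threshold in either. Among the 8 arrays, 93 passed an unadjusted P below 0.05, where 18.3% of all RNAs did, and with the block 21 did, where 4.08% of all RNAs did.

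**Figure D5:**
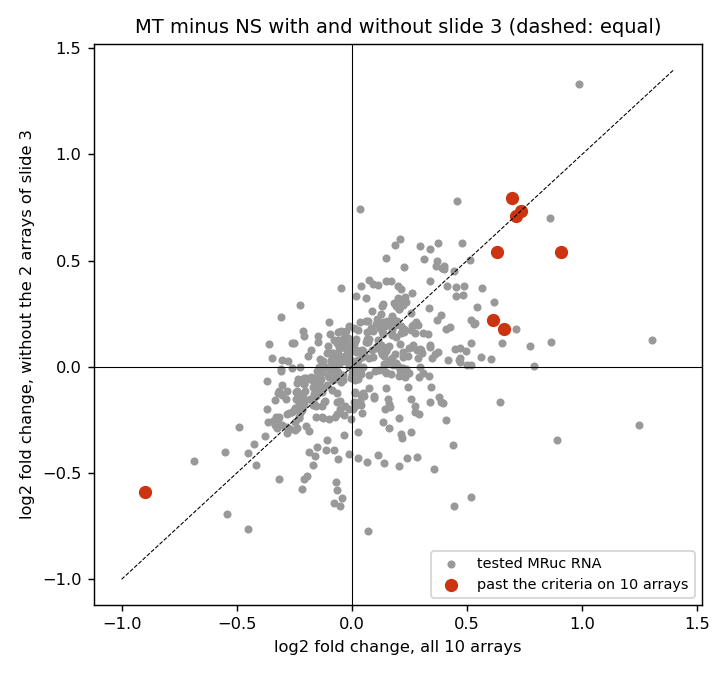
Log2 difference of MT minus NS without the 2 arrays of slide 3 (y axis) against that over all 10 arrays (x axis) for the 500 tested MRuc RNAs, with the 8 RNAs past the criteria on all arrays in red and a dashed line where both are equal. MRuc007nww lies far right at 1.30 and near 0 on the y axis at 0.13, and the 8 red points keep their sign.

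Single rats also moved the counts. Leaving out NS rat 7 gave 20 MRuc RNAs higher in MT, where 2.61% of all RNAs passed. Leaving out NS rat 6 or NS rat 10 gave 14 each, where 2.47% and 2.68% passed, and leaving out MT rat 2 gave 13, where 2.2% passed. Without MT rat 1, MT rat 4, NS rat 8 or NS rat 9 the count was 4, where 1.31%, 1.20%, 1.54% and 1.28% passed. Without MT rat 2, 3 MRuc RNAs passed the adjusted threshold in limma, where 0.414% of all RNAs did. No slide then held both groups, so group and slide could not be told apart. The 3 RNAs were MRuc009glr at 0.73 with an adjusted p of 0.0158, MRuc008xbl at -0.41 with 0.0429, and MRuc008uuz. For MRuc008uuz no NS array was above background and no size is given. The low spot of MRuc009glr was read on every array of slide 2, and those left without MT rat 2 were all NS. These 4 rats with the larger counts were all those of slide 2.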

How the data were processed

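Total RNA of 10 spinal cords, 5 MT and 5 NS, was hybridized to one-colour arrays. Per the labels, the authors removed rRNA, amplified and labelled by random priming with Cy3, and extracted the spots with Agilent Feature Extraction 11.0.1.1. The deposited files of each array hold background-subtracted intensity values on a linear scale, with flags (other values) for spots that are outliers, saturated or well above background. The authors also deposited quantile-normalized log2 values in 1 table, whose direction and scale were those of the scanner files (Pearson's r over the MRuc probes 0.992 to 0.997 per array, column medians 6.82 to 6.83) and which was an alternative here. No probe sequence or position of the MRuc RNAs was used here.

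From the intensities, log2 values (floor 1) were quantile normalized in limma 3.58.1 (R 4.3.3, data.table version 1.17.8; figures with Python 3.11.15 and matplotlib 3.10.9). Outlier spots, 2.02% of 20550 MRuc spot values, were left out and the spots of a probe averaged. 5 values had no spot left, and 3 tested RNAs have 4 missing values. RNAs with more than 50% of spots well above background on at least 5 arrays were tested with limma over 20286 RNAs, 2 of which gave no estimate, with Benjamini-Hochberg adjustment. The study's criterion of log2 fold was read as a linear fold of 1.5. The number of arrays limits the precision. Rats are separate animals. Bounds compare the MT mean with the NS mean of the higher of each array's detection threshold and the measured value. The script for the test was tested on simulated data.

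RNAs were named by rule: the 4 MRuc lncRNAs among those the study tabulated, those past the criteria or an adjusted p of 0.05, up to 5 per direction by smallest P, those separated above 1.5-fold, the 3 strongest, the 3 weakest and the 3 of largest NS SD, and those detected in 1 group alone. No MRuc RNA had several probes. The members, lists and rule were chosen with earlier results of these data known. Alternatives were other scalings, background correction by normexp (offset 50, on median signals, since a mean signal was not used here), the deposited table, filters, tests, slide blocks, and leaving out slide 3 or a rat. The median of the spots was added after seeing the data. Marker lists of cell types not given above (motor neuron, endothelial, lumbar position, erythrocyte, dorsal root ganglion, meningeal fibroblast, skeletal muscle, liver) overlapped between the groups.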

Additional observations from a re-analysis of the deposited data

Results flagged for a closer look

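Among 64 sets of values examined, those of 30 named MRuc RNAs and of 2 measures per array (the share detected and the median level) in each group, with 5 rats a set (4 for MRuc008pug), 3 had 1 rat far from the others by Dixon's ratio, and chance gives about 1 in 20. All 3 were MT rat 2, at a normalized log2 intensity of 2.34 for MRuc008pyu, 2.85 for MRuc008uuz and 3.12 for MRuc008pze, where the other MT rats read 3.49 to 3.92, 3.38 to 3.57 and 4.10 to 4.31. This rat was the MT rat hybridized on slide 2, and slide and rat cannot be told apart here.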

How the results depend on the processing

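On all arrays 7 MRuc RNAs were higher and 1 lower in MT by the study's criteria, 0 passed the adjusted threshold and the median log2 difference was 0.026. Scaling to the 75th percentile gave 19 higher, 0 lower and a median of 0.21, where that of all RNAs was 0.07. Normexp gave 2 higher, 0 lower and 2 past the adjusted threshold, where 0.670%, 0.311% and 0.725% of all RNAs passed. The deposited table gave 1 past it, a variance trend 2, and array weights 5 with 3 lower by the criteria. Over all RNAs 0.328%, 0.577% and 1.104% passed the adjusted threshold in these settings, and 1.21% were lower with array weights. The MRuc shares were smaller, at 0.2%, 0.4% and 1% past the threshold and 0.6% lower. Without a filter 16 were lower and the median was -0.021. With detection required on all 10 arrays, 315 MRuc RNAs were tested, with 2 higher, 0 lower, 3 past the adjusted threshold and a median of -0.012. Of all RNAs under that filter 1.22% were higher, 1.02% lower and 0.773% past the adjusted threshold. The counts with slide as a fixed block are given above, and slide as a random block gave 2 higher and 2 lower. There 0.813% and 0.804% of all RNAs passed. Without slide 3, 9 were lower. A log2 fold of 1.5 read literally gave 0 and 0. The median of the spots, chosen after seeing the data, gave 4 higher, 2 lower and 1 past the adjusted threshold. Over all RNAs 1.52%, 1.01% and 0.153% passed. The 1 was MRuc008uuz, well above background on no NS array and tested through its MT arrays alone. Leaving out each rat in turn gave 4 to 20 higher (20 without NS rat 7), 1 to 3 lower and 0 to 3 past the adjusted threshold. Over all RNAs 1.20% to 2.68% were higher, 0.804% to 1.59% lower and 0 to 0.414% past the adjusted threshold. The 3 came without MT rat 2, where no slide held both groups. Medians were 0.0093 to 0.048, each over the 500 RNAs of the main test. Repeating the detection filter without each rat kept 487 to 500 RNAs, a count that was not used in these fits. Apart from the smaller number of RNAs or arrays in some of these, the cause was not tested.

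Signs turned in at least 1 setting for the following named RNAs, which include MRuc008pyu and MRuc008pze of those past the criteria. With slide as a fixed block MRuc007cgx went to -0.084, MRuc008pyu to -0.42, MRuc008pze to -0.079 and MRuc008fdh to -0.023. Without slide 3 MRuc008pug went to -0.27, MRuc008fdh to -0.34 and MRuc008lvx to 0.15. MRuc008lvx was 0.26 with the 75th percentile and 0.031 with array weights, where MRuc008fdh was -0.048. MRuc008nus was -0.0052 with normexp, -0.055 with the median of the spots, and -0.069, -0.058 and -0.012 without NS rats 6, 7 and 10 (-0.069 to 0.17 over the rats left out). MRuc008tzg was -0.037 in the deposited table, -0.022 with the random block, -0.017, -0.027 and -0.027 without MT rats 1, 3 and 4, and -0.14, -0.11 and -0.17 without NS rats 6, 7 and 10 (-0.17 to 0.37 over the rats left out). Of the other comparisons of named RNAs with their alternatives, 468 kept direction and side of the threshold, 56 lost it and 14 gained it. No paired analysis was possible because the rats are numbered 1 to 10 and the groups share no number. Signals near background limit the RNAs below a level of about 4.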
